A study of Homo sapiens with 4 samples.

Results

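The genes described here are 41 genes for DNA replication and mitosis, 20 that act in S phase and 21 that act in mitosis. They were listed by name, and each probe set whose platform annotation gave 1 of these symbols alone was taken, which found all 41 genes among the 19775 named on the array, with 87 of 41091 probe sets. The arrays came from PC14 cells, a line from a human lung cancer of the non-small-cell kind, sorted by fluorescence on E-cadherin, which joins epithelial cells to each other, and then on CD133, a cell surface protein taken to mark stem-like cancer cells. Cells low in E-cadherin are called Elow and those high in it Ehigh, and likewise CD133high and CD133low. The 4 subpopulations were Elow CD133high, Elow CD133low, Ehigh CD133high and Ehigh CD133low, all of them cultured with no drug named in the labels. CD133 status was read from green fluorescent protein, expressed from a lentivirus under the P1 promoter of the CD133 gene, which all subpopulations were thus given. The study covers 1 cell line with 1 array per subpopulation, so that no difference below has a replicate check, and no ratio within a pair was tested.

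Genes of the cell cycle are transcribed in waves. In late G1 and S phase, E2F factors released from the RB family activate the genes for loading the MCM helicase, making nucleotides and running the replication fork. In G2 and mitosis, the MuvB complex with B-MYB and FOXM1 activates the genes for cyclin B and CDK1, the spindle, the kinetochore and the mitotic checkpoint, while in resting cells the related DREAM complex represses both waves. Because the transcripts are abundant mainly in cycling cells, their level in a bulk sample is widely used as a measure of proliferation. In these bulk samples, fewer cells in S phase or mitosis and less of the RNA per cell cannot be told apart.

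Motifs known for this control were sought in the members' promoters, which are shown here for 6 genes on which the results below turn. The sequences are RefSeq promoters of build GRCh38.p14, from 250 bases before to 50 bases after the start, read 5′ to 3′ on the strand of the gene. Capitals mark E2F motifs (TTTCCCGC, TTTGGCGC, TTTCGCGC or TTTGCCGC) and CHR motifs (TTTGAA or TTCGAA, the MuvB site called the cell cycle genes homology region), on either strand. GINS2 (chr16:85688905-85689204, minus strand) and MCM3 (chr6:52284693-52284992, minus strand) were the S-phase members with the lowest CD133 ratios in Elow cells, and PCNA (chr20:5126573-5126872, minus strand) had opposite ratios in matched pairs. CDK1 (chr10:60778081-60778380, plus strand) and CDC20 (chr1:43358731-43359030, plus strand) read lowest among mitosis members in Elow CD133high cells, relative to their own means. E2F1 (chr20:33686336-33686635, minus strand) had ratios opposite in sign to the S-phase medians outside the CD133 pair of Ehigh cells.
GINS2: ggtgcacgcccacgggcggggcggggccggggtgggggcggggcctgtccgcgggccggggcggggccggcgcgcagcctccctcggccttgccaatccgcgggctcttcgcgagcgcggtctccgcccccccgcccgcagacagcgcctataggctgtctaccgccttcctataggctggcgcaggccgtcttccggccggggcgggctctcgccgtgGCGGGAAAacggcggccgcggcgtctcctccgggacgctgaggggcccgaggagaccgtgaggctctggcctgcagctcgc
MCM3: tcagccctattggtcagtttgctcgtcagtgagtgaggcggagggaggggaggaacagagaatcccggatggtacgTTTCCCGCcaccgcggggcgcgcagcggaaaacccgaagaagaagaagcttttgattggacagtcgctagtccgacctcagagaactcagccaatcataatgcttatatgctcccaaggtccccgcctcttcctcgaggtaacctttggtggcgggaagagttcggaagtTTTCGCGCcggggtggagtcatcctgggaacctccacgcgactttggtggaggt
PCNA: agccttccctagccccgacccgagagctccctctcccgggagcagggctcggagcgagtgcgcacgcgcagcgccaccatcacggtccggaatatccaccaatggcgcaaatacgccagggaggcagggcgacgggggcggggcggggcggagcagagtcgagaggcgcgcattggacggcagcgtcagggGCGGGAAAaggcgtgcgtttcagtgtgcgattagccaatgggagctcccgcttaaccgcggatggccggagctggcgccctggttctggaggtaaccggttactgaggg
CDK1: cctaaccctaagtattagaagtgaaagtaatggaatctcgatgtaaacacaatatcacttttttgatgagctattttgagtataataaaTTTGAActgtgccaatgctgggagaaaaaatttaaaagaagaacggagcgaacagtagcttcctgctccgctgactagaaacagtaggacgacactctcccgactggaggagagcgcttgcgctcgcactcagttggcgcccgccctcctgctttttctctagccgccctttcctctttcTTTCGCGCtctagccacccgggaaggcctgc
CDC20: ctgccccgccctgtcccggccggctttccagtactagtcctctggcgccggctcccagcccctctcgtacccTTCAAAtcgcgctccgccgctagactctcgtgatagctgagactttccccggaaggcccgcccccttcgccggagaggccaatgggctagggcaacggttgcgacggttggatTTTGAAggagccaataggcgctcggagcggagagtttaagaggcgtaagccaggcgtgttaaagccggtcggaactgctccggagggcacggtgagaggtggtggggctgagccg
E2F1: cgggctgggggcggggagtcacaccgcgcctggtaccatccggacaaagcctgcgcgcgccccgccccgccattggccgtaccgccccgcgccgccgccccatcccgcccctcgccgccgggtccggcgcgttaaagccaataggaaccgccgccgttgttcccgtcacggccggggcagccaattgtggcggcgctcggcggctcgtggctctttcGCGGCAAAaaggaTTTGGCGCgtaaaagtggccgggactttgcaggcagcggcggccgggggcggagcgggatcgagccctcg
The GINS2 and PCNA windows hold 1 E2F motif each, and those of MCM3 and E2F1 hold 2 each. CDC20 holds 2 CHR motifs and no E2F motif, and CDK1 holds 1 of each. For PCNA and CDK1 the table has 2 promoters each, of which the first is shown.

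Of the members, 35 matched a promoter in the table, and 6 (MCM4, MCM5, E2F8, AURKA, BIRC5 and TPX2) did not. An E2F motif lay in at least 1 promoter of 12 of 17 S-phase genes (70.6%), of 3 of 18 mitosis genes (16.7%) and of 3.99% of all 27305 genes in the table. A CHR motif lay in 2 of 17 S-phase genes (11.8%), 13 of 18 mitosis genes (72.2%) and 19.5% of all genes. The CCAAT box, bound by NF-Y, was common to both groups, in 12 of 17 S-phase genes and 16 of 18 mitosis genes, against 39.7% of all genes. Counted per promoter, the E2F motif was in 56.5% of the S-phase, 17.4% of the mitosis and 3.31% of all 35116 promoters. In the members' promoters, 2 overlaps between motifs of different kinds were found. A match describes these letters and is not a measure of binding.

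**Figure D1:**
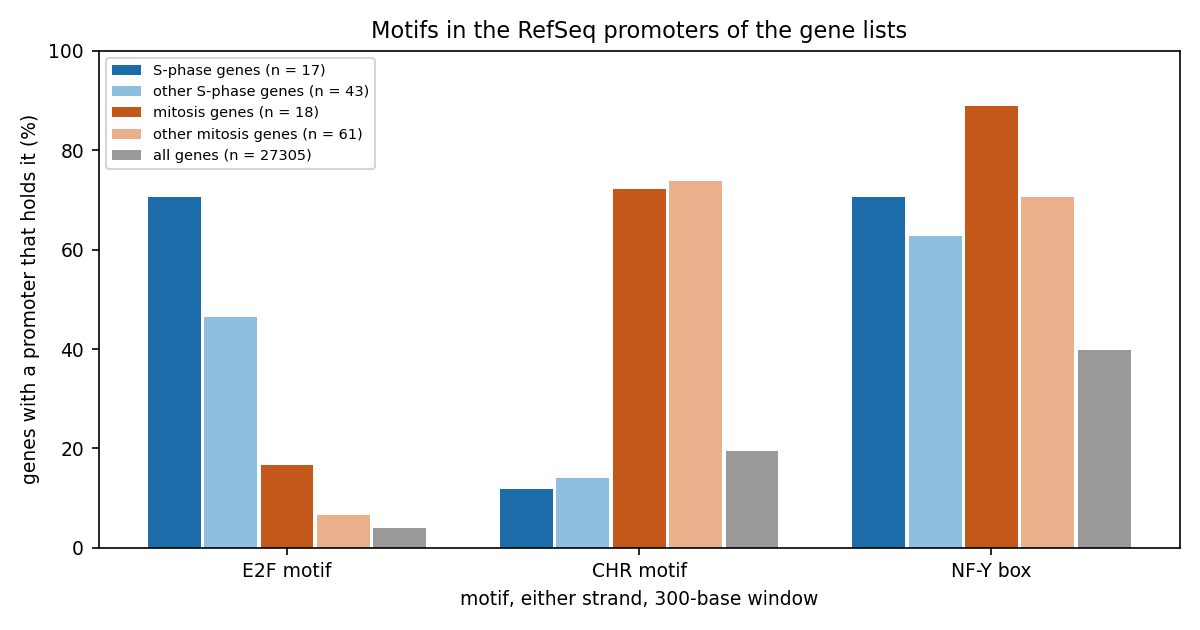
Share of genes, in percent, with an E2F motif, a CHR motif or an NF-Y box (CCAAT) in at least 1 RefSeq promoter, for the S-phase and mitosis members, the other genes of the pathway and all genes (bars, with the number of genes in the legend). E2F motifs reach 70.6% in the S-phase members and CHR motifs 72.2% in the mitosis members.

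Signals are the authors' intensities on a linear scale, scaled within each array. The median probe set of an array, a signal of 53.7 to 60.3, served as its floor, and lower signals were set to it. Of the members, 40 lay above the floor on all 4 arrays, and E2F1 lay above it on 3. The brightest probe set of a gene, by its mean over the arrays, stands for it, and signals of different genes are not compared. In the absence of replicates, the only error seen within these data is the spread between probe sets of a gene, which share the RNA. For the 23 member genes with several probe sets above the floor on all arrays, the SD of the log2 ratio between probe sets of a gene was 0.32 to 0.40, depending on the pair of arrays. Of the 6 epithelial markers checked, 5 lay above the floor on all arrays, KRT19 being the exception. CDH1 followed the E-cadherin sort, with 347 and 528 in Elow against 5548 and 3546 in Ehigh cells. PROM1, the gene for CD133, lay below the floor on all arrays, so that CD133 status rests on the reporter. Among 10 markers of leukocytes, endothelial cells and fibroblasts with a probe set, PTPRC, PECAM1, COL1A1 and COL3A1 lay above the floor on all arrays. The summed signal of the 4 fibroblast markers was 21747 and 17613 in Elow and 31351 and 24430 in Ehigh cells, CD133high before CD133low. PTPRC, which encodes the leukocyte protein CD45, moved with the CD133 sort, with signals of 1102 (Elow CD133high), 505 (Elow CD133low), 1246 (Ehigh CD133high) and 346 (Ehigh CD133low). The summed signal of the 3 leukocyte markers was 1165 and 534 in Elow and 1283 and 414 in Ehigh cells, and CD14 lay below the floor on all arrays. That of the 3 endothelial markers was 142 to 186. The part of these markers in the members' values was not tested.

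Both groups of genes read lowest in Elow CD133high cells and highest, on average, in Elow CD133low cells. Relative to each gene's mean over the 4 arrays, the 19 S-phase genes above the floor on all arrays averaged -0.40 ± 0.27 in Elow CD133high, 0.33 ± 0.21 in Elow CD133low, 0.05 ± 0.19 in Ehigh CD133high and 0.02 ± 0.27 in Ehigh CD133low cells (log2 units, SD over genes). The 21 mitosis genes averaged -0.26 ± 0.24, 0.14 ± 0.22, 0.08 ± 0.20 and 0.04 ± 0.22 in the same order. The difference between the Elow arrays was thus wider for S-phase than for mitosis genes, and the Ehigh arrays lay close together for both.

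**Figure D2:**
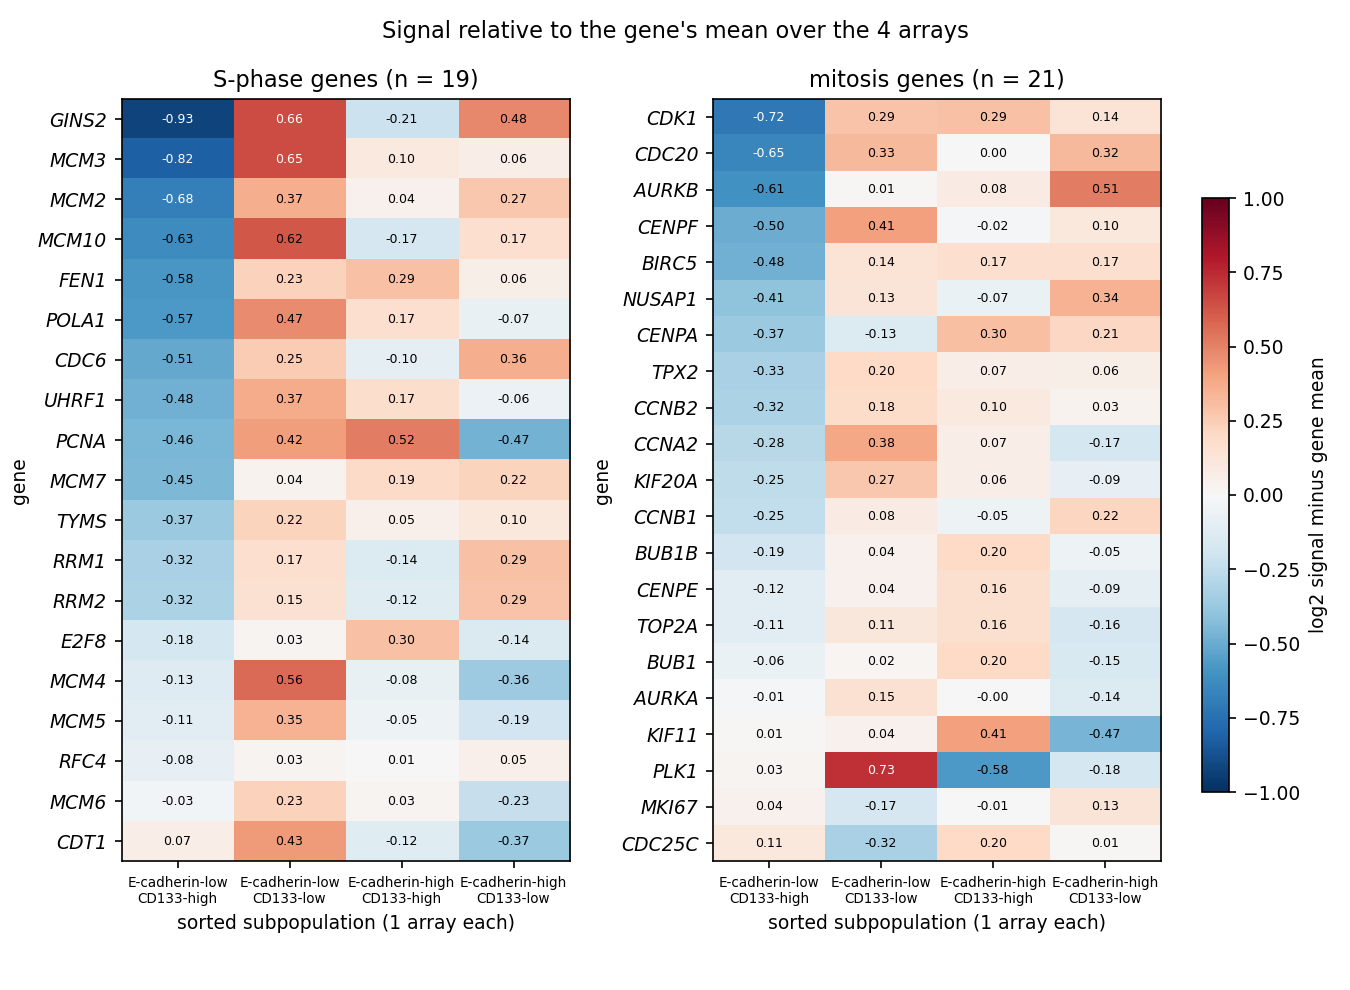
Each cell gives the log2 signal of a gene (rows, S-phase genes on the left and mitosis genes on the right) in a sorted subpopulation (columns, 1 array each) minus the gene's mean over the 4 arrays, with blue below and red above that mean. The first column, Elow CD133high cells, runs from -0.93 for GINS2 to 0.07 for CDT1 among S-phase genes and from -0.72 for CDK1 to 0.11 for CDC25C among mitosis genes. E2F1, below the floor on 1 array, is not drawn.

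The Elow CD133high array was the lowest of the 4 for 14 of 19 S-phase genes and 14 of 21 mitosis genes, where 29.7% of all 10891 genes above the floor on all arrays had their lowest signal. It was the highest for 0 of 19 and 0 of 21 members, where 27.8% of all genes had their highest. The Elow CD133low array was the highest for 11 of 19 S-phase genes and 8 of 21 mitosis genes, against 24.8% of all genes. For mitosis genes the Ehigh CD133high array was the highest about as often, for 9 of 21, against 20.4% of all genes. The Ehigh CD133low array was the highest for 5 of 19 and 4 of 21, against 27% of all genes. The Elow CD133low array was the lowest for 0 of 19 and 2 of 21, against 27% of all genes. Among the 12 housekeeping genes, 8 also had their lowest signal in Elow CD133high cells, but their mean there was -0.09 ± 0.12 relative to the gene mean. Taking every member probe set above the floor on all arrays, the Elow CD133high array was the lowest for 26 of 35 S-phase and 25 of 39 mitosis probe sets. The share over all probe sets of the array was not counted.

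**Figure D3:**
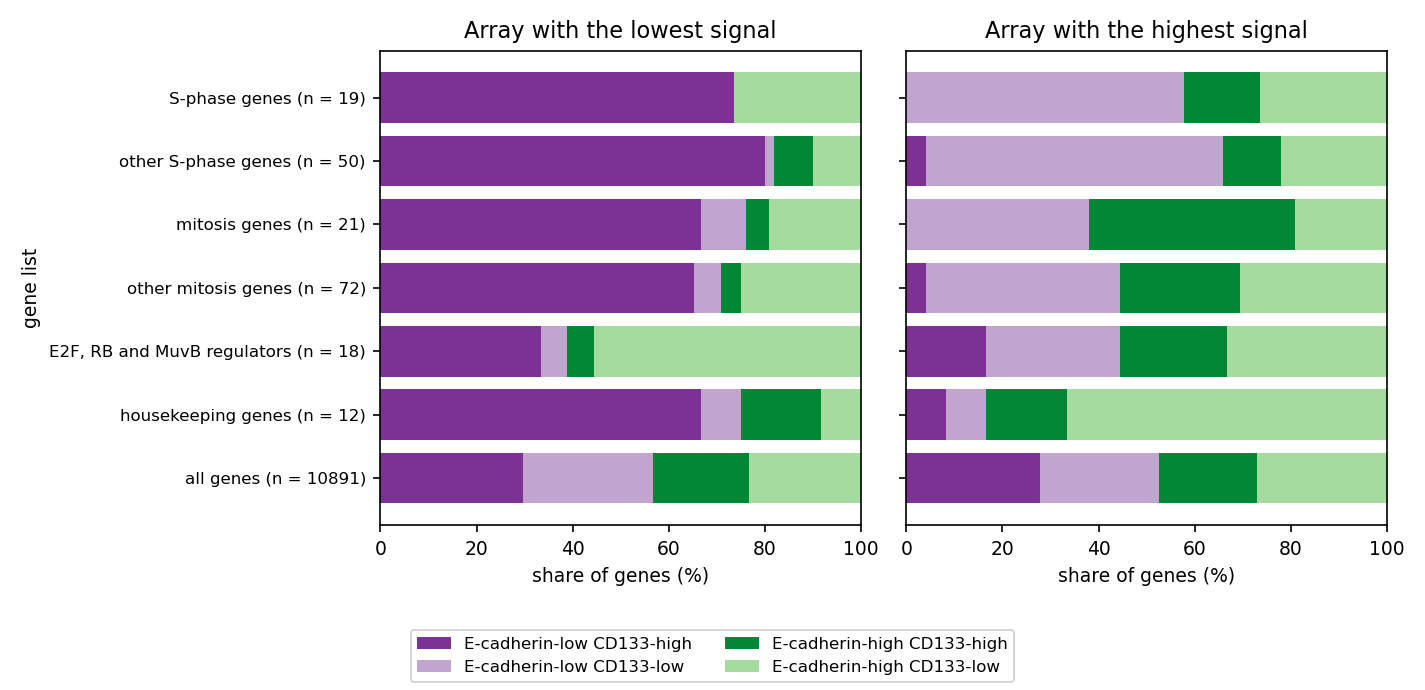
Share of genes, in percent, that had their lowest (left) or highest (right) signal on the array of each of the 4 subpopulations (colours), for 7 gene lists (rows). Elow CD133high cells hold the lowest signal of 14 of 19 S-phase genes and 14 of 21 mitosis genes.

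The ratios were taken within pairs of arrays that differ in 1 sorted marker. Among CD133high cells, Elow cells had a median log2 ratio over Ehigh cells of -0.44 for S-phase and -0.34 for mitosis genes, against 0.05 for all 14083 measured genes. Ratios were below 0 for 18 of 20 and 19 of 21 members, against 45.6% of all genes, and above 0 for 2 of 20 and 2 of 21, against 54.4%. Among CD133low cells the medians lay on the other side, at 0.17 and 0.14, against -0.01 for all genes, with 14 of 20 and 14 of 21 members above 0 and 43.8% of all genes there. Without shared probe sets these medians were 0.37 and 0.28, and with probe sets averaged the mitosis median was 0.09.

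The CD133 comparison likewise depended on the pair. In Elow cells, CD133high over CD133low cells gave medians of -0.64 for S-phase and -0.50 for mitosis genes, against 0.06 for all genes. With each gene's probe sets averaged, the mitosis median was -0.24. Ratios were below 0 for 19 of 20 and 19 of 21 members, against 46.1% of all genes, and above 0 for 1 of 20 and 2 of 21, against 53.9%. In Ehigh cells the medians were 0.00 and 0.10, against -0.05 for all genes, with 10 of 20 and 7 of 21 members below 0 and 54.1% of all genes, and 10 of 20 and 14 of 21 above 0, against 45.9%. Over the alternatives these medians ranged from -0.05 to 0.10 and from 0.08 to 0.25. The pairs with the wide shifts share the array of Elow CD133high cells, so they are not independent of each other.

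Set against the SD between probe sets, 12 of 20 S-phase and 12 of 21 mitosis genes were lower by more than that SD in Elow than in Ehigh cells among CD133high cells, against 18.8% of all genes, and 1 of 20 and 1 of 21 were higher by more than it, against 21.6%. In CD133high over CD133low cells of the Elow state it was 15 of 20 and 11 of 21, against 22.2%. Elow over Ehigh cells of the CD133low state gave 9 of 20 and 3 of 21 members higher by more than the SD, against 16% of all genes. For CD133 in Ehigh cells, 5 of 20 and 3 of 21 were lower, against 22.4% of all genes, and 2 of 20 and 2 of 21 higher, against 23.1%.

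**Figure D4:**
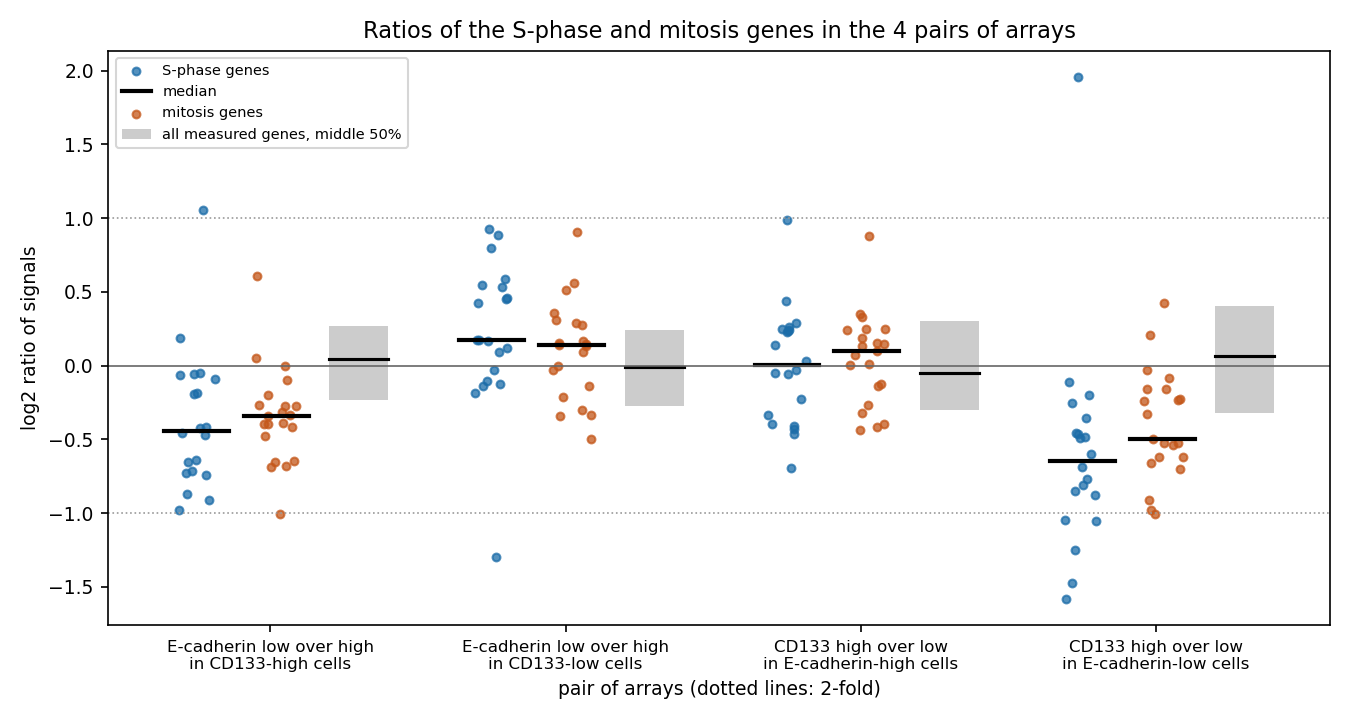
Log2 ratio of signals (vertical axis) of each S-phase gene (blue) and mitosis gene (orange) in the 4 pairs of arrays, with black lines at the medians and grey bars for the middle 50% of all measured genes. The medians lie below 0 in the first and last pair, at -0.44 and -0.34 and at -0.64 and -0.50. The S-phase point far above the others in both is E2F1.

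The licensing and helicase genes were among those with the widest differences. GINS2, a subunit of the GINS complex that turns the loaded MCM ring into an active helicase, read 1604 in Elow CD133high and 4796 in Elow CD133low cells, against 2630.5 in Ehigh CD133high and 4253 in Ehigh CD133low cells. By this brightest probe set it was lower in CD133high than in CD133low cells at both E-cadherin states, with log2 ratios of -0.69 in Ehigh and -1.58 in Elow cells. Both CD133high arrays lay below both CD133low arrays. A dim probe set of GINS2, above the floor on all arrays, gave -0.05 in Ehigh and -0.37 in Elow cells. Another lay below the floor on both Ehigh arrays and gave -0.59 in Elow cells. MCM3, a subunit of that ring, had signals of 1088 (Elow CD133high), 3016 (Elow CD133low), 2048 (Ehigh CD133high) and 2004 (Ehigh CD133low). The Ehigh arrays were nearly equal, with the Elow arrays on either side of them, and the CD133 ratio was -1.47 in Elow and 0.03 in Ehigh cells.

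MCM2, another ring subunit, read 3564 in Elow CD133high and 7384 in Elow CD133low cells, against 5906 in Ehigh CD133high and 6913 in Ehigh CD133low cells, so that 1 array stood below the other 3. Its ratios were -0.73 for E-cadherin among CD133high cells and -1.05 for CD133 among Elow cells. MCM10, which recruits polymerase alpha to the origin, had signals of 1123 (Elow CD133high), 2668 (Elow CD133low), 1544 (Ehigh CD133high) and 1951 (Ehigh CD133low). Its CD133 ratio was -1.25 in Elow cells and -0.34 in Ehigh cells. The dimmer probe sets of MCM10 gave -0.82 and -0.53 in Elow cells, under 2-fold, and 0.42 and -0.39 in Ehigh cells. CDC6, which loads the MCM ring, read 1629.5 in Elow CD133high and 2775 in Elow CD133low cells, against 2169 in Ehigh CD133high and 2989 in Ehigh CD133low cells, and its CD133 ratios were -0.46 and -0.77 in Ehigh and Elow cells.

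By their brightest probe sets, MCM4, MCM5 and MCM6 had E-cadherin ratios of -0.05, -0.06 and -0.06 among CD133high cells and of 0.93, 0.54 and 0.46 among CD133low cells. All 3 were highest in Elow CD133low cells. Probe sets of MCM4 differed, and its next brightest ones gave -0.65 and -0.34 among CD133high cells and -1.17 and -1.06 for CD133 among Elow cells. MCM7 had E-cadherin ratios of -0.64 among CD133high and -0.18 among CD133low cells. CDT1, the partner of CDC6 in loading, was the licensing gene with a ratio above 0 among CD133high cells (0.19), and it had 0.80 among CD133low cells. Its dimmer probe set gave -0.19 and -0.13. Over the 10 licensing and helicase genes, 10 had a CD133 ratio below 0 in Elow cells, with a median of -0.73, where 46.1% of all genes did. In Ehigh cells 5 did, with a median of 0.00, where 54.1% of all genes did.

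Among fork proteins, PCNA, the sliding clamp that holds polymerases on DNA, had the crossed pattern in its clearest form. It read 6949 in Elow CD133high and 12749 in Elow CD133low cells, against 13665 in Ehigh CD133high and 6899.9 in Ehigh CD133low cells. The Elow CD133high and Ehigh CD133low arrays were alike and low, and the other two were alike and high. The E-cadherin ratios were therefore -0.98 and 0.89 in CD133high and CD133low cells, and the CD133 ratios 0.99 and -0.88 in Ehigh and Elow cells. This gene has 1 probe set.

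POLA1, the catalytic subunit of polymerase alpha, had signals of 609.5 (Elow CD133high), 1259 (Elow CD133low), 1021 (Ehigh CD133high) and 864 (Ehigh CD133low), with a CD133 ratio of -1.05 in Elow cells. FEN1, the flap endonuclease that trims Okazaki fragments, read 4641 in Elow CD133high and 8150.3 in Elow CD133low cells, against 8500.5 in Ehigh CD133high and 7257 in Ehigh CD133low cells. Its single low array gave ratios of -0.87 for E-cadherin among CD133high cells and -0.81 for CD133 among Elow cells. RFC4, a subunit of the clamp loader, differed little, with ratios of -0.09, -0.03, -0.05 and -0.11 in the 4 pairs, all within the SD between probe sets.

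Of the nucleotide supply genes, RRM1 and RRM2 were lower in CD133high cells at both E-cadherin states, by small ratios. RRM1 and RRM2, the large and small subunits of ribonucleotide reductase, had CD133 ratios of -0.43 and -0.41 in Ehigh and of -0.49 and -0.47 in Elow cells. RRM2 read 15777 in Elow CD133high and 21793 in Elow CD133low cells, against 18053 in Ehigh CD133high and 24005 in Ehigh CD133low cells, and both CD133high arrays lay below both CD133low arrays for either gene. TYMS, thymidylate synthase, had CD133 ratios of -0.05 and -0.60 by its brightest probe set, and its next brightest one gave -0.32 and -0.78. By the brightest probe sets, the E-cadherin ratios of these nucleotide supply genes lay between -0.42 and 0.12.

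The regulators of S-phase genes did not follow a single pattern. UHRF1, which brings the maintenance DNA methyltransferase to newly copied DNA, read 4075 in Elow CD133high and 7347 in Elow CD133low cells, against 6423 in Ehigh CD133high and 5461 in Ehigh CD133low cells, like most fork genes. E2F8, an atypical E2F that represses E2F targets, had signals of 1251 (Elow CD133high), 1439 (Elow CD133low), 1735 (Ehigh CD133high) and 1279 (Ehigh CD133low) and ratios of -0.47 to 0.44.

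E2F1, the activator itself, had ratios opposite in sign to the S-phase medians outside the CD133 pair of Ehigh cells. In that pair the S-phase median was 0.00, with 10 of 20 genes above and 10 below 0, and the E2F1 ratio was -0.40. Its signals were 222 (Elow CD133high), 49.5 (Elow CD133low), 107 (Ehigh CD133high) and 140.5 (Ehigh CD133low), with the second below the floor of 57.0. By this probe set it was 2.08-fold higher in Elow than in Ehigh cells among CD133high cells, and at least 3.88-fold higher in CD133high than in CD133low cells among Elow cells. Among CD133low cells the E-cadherin ratio, as a bound, was -1.30. Its other probe set read 112, 105, 89.5 and 126 in the same order, with no such difference, so these E2F1 values rest on 1 dim probe set. Without E2F1, no S-phase gene had a ratio of 1 or more in any pair.

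Among mitosis genes the median ratios were smaller in these pairs. CDK1, the kinase that drives entry into mitosis, was the mitosis member at least 2-fold lower in a pair. It read 4275 in Elow CD133high and 8576 in Elow CD133low cells, against 8597 in Ehigh CD133high and 7745 in Ehigh CD133low cells, so that 1 array lay below the other 3, with a ratio of -1.01 for E-cadherin among CD133high cells and one also just past 2-fold for CD133 among Elow cells. The other 2 bright probe sets of CDK1 gave -0.54 and -0.79 in the first of these pairs and -0.37 and -0.52 in the second, in the same direction but under 2-fold. A dim probe set of CDK1 gave 0.07 and -0.10. The cyclins that bind it went less far. CCNA2 had -0.34 and -0.66 in these pairs, CCNB2 -0.42 and -0.50, and CCNB1 -0.20 and -0.33. CDC25C, the phosphatase that activates CDK1, read 1288 (Elow CD133high), 958 (Elow CD133low), 1376 (Ehigh CD133high) and 1207 (Ehigh CD133low), with CD133 ratios of 0.19 in Ehigh and 0.43 in Elow cells. A dimmer probe set gave 0.54 and -0.35.

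For the kinases of mitosis, AURKB, the kinase of the chromosomal passenger complex, was by its brightest probe set lower in Elow cells of either CD133 state. It read 2208 in Elow CD133high and 3390.1 in Elow CD133low cells, against 3549 in Ehigh CD133high and 4794 in Ehigh CD133low cells, and both Elow arrays lay below both Ehigh arrays, with ratios of -0.68 and -0.50. Its CD133 ratios were -0.43 and -0.62. A dim probe set of AURKB, above the floor on 3 arrays, read 24.0 in Elow and 75.3 in Ehigh cells of the CD133high state. In the CD133low state it read 121.8 and 116.5. BIRC5, survivin, a partner of AURKB in the passenger complex, had -0.65 and -0.03 for E-cadherin in CD133high and CD133low cells. Its dimmer probe sets differed, with -0.77, -0.53 and 0.49 in CD133high and 0.53, -0.21 and -0.70 in CD133low cells. AURKA, the centrosomal aurora kinase, had ratios of -0.16 to 0.29 in the 4 pairs by its brightest probe set. Another bright one gave 0.93 for E-cadherin among CD133low cells and 0.88 for CD133 among Ehigh cells.

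PLK1, the polo-like kinase of mitotic entry, was the member that was higher in Elow cells by 1.5-fold or more in both pairs. Its signals were 182 (Elow CD133high), 295 (Elow CD133low), 119 (Ehigh CD133high) and 157 (Ehigh CD133low), with both Elow arrays above both Ehigh arrays. The ratios were 0.60 in CD133high and 0.91 in CD133low cells. It has 1 probe set, with signals 2.22 to 5.18 times the floor of the array.

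The checkpoint kinases BUB1 and BUB1B had E-cadherin ratios of -0.26 and -0.39 among CD133high cells and 0.17 and 0.09 among CD133low cells. CDC20, the activator of the anaphase-promoting complex that this checkpoint holds back, read 4417 in Elow CD133high and 8692 in Elow CD133low cells, against 6944 in Ehigh CD133high and 8688 in Ehigh CD133low cells. Both CD133low arrays were nearly equal, and both CD133high arrays lay below them, with ratios of -0.32 in Ehigh and -0.98 in Elow cells.

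By their brightest probe sets, spindle genes were close to one another in Elow over Ehigh cells of the CD133high state. The motors KIF11, which separates the spindle poles, and KIF20A, which acts in cytokinesis, had -0.40 and -0.32, and the microtubule proteins TPX2 and NUSAP1 -0.40 and -0.34. A dimmer probe set of NUSAP1 gave -0.82. KIF11 had a high CD133 ratio in Ehigh cells, 0.88, from signals of 2461 (Elow CD133high), 2510.4 (Elow CD133low), 3238 (Ehigh CD133high) and 1763 (Ehigh CD133low). The 1 low array here was that of Ehigh CD133low cells.

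Of the centromere genes, CENPF, a kinetochore protein that builds up in G2, had signals of 1831 (Elow CD133high), 3445 (Elow CD133low), 2549 (Ehigh CD133high) and 2778 (Ehigh CD133low) and a CD133 ratio of -0.91 in Elow cells. A dimmer probe set gave -0.84 there, but 1.29 in Ehigh cells, where the brightest gave -0.12. CENPA, the histone of the centromere, had E-cadherin ratios of -0.68 and -0.34, and the kinetochore motor CENPE -0.28 and 0.13. The proliferation marker MKI67 and the topoisomerase TOP2A, which untangles DNA, had small ratios by their brightest probe sets. MKI67 read 1706 in Elow CD133high and 1475 in Elow CD133low cells, against 1648 in Ehigh CD133high and 1816 in Ehigh CD133low cells, with ratios of -0.30 to 0.21, within the SD between probe sets in every pair. Its probe sets differed, however, and a dimmer one gave -0.46 for E-cadherin among CD133high cells and -0.88 for CD133 among Elow cells. TOP2A had -0.28 and 0.28 for E-cadherin and 0.33 and -0.23 for CD133. Its next brightest probe set gave -0.54 and -0.22 for E-cadherin and 0.09 and -0.23 for CD133.

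Where both pairs of a comparison had to reach 2-fold on the same side, 0 of 20 S-phase and 0 of 21 mitosis genes were higher or lower with low E-cadherin, where 0.476% of all genes were higher and 0.54% lower. With high CD133 it was also 0 of 20 and 0 of 21, where 2.45% of all genes were higher and 1.12% lower. In single pairs, 5 of 20 S-phase genes (MCM2, MCM3, MCM10, GINS2 and POLA1) and 1 of 21 mitosis genes (CDK1) were at least 2-fold lower in CD133high than in CD133low cells among Elow cells, against 4.27% of all genes. With each gene's probe sets averaged, these counts were 3 and 0, without shared probe sets 3 and 2, and the mitosis count was 0 under quantile normalization. In the same pair E2F1 was at least 2-fold higher, as were 8.11% of all genes. For E-cadherin among CD133high cells, CDK1 was at least 2-fold lower and E2F1 higher, against 2.53% and 3.81% of all genes. Among CD133low cells E2F1 was the member that was lower, against 2.87%, and 0 were higher, against 2.63%, and for CD133 in Ehigh cells no member reached 2-fold, against 3.24% lower and 5.04% higher.

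At 1.5-fold in both pairs, PLK1 was higher with low E-cadherin, where 1.78% of all genes were, and GINS2 was lower with high CD133, where 3.93% were. PCNA, MCM3 and E2F1 had E-cadherin ratios of 1.5-fold or more in opposite directions, as had 2.03% of all genes, and PCNA had such CD133 ratios, as had 1.59%. At 2-fold, E2F1 had opposite E-cadherin ratios, as had 0.234% of all genes, and 0 members had opposite CD133 ratios, against 0.227%. In both pairs at 1.5-fold, 0 members were lower with low E-cadherin or higher with high CD133, against 1.83% and 6.63% of all genes.

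At 1.5-fold in single pairs, 8 of 20 S-phase and 5 of 21 mitosis genes were lower in Elow than in Ehigh cells of the CD133high state, against 8.09% of all genes, and 1 and 1 were higher, against 10.6%. Among CD133low cells, 4 of 20 and 1 of 21 were higher, against 9.37%, and 1 and 0 were lower, against 9.65%. In CD133high over CD133low cells of the Elow state, 11 of 20 and 7 of 21 were lower, against 13.1%, and 1 and 0 were higher, against 17.9%. In the Ehigh state, 1 of 20 and 0 of 21 were lower, against 10.8%, and 1 and 1 were higher, against 13.3%.

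An additive limma fit over the 4 arrays, with 1 residual degree of freedom, called 0 members for either marker. Over all 14083 genes it called 0 higher and 0 lower for E-cadherin, and 27 higher and 28 lower for CD133. Without adjustment, limma p was under 0.05 for 0 of 20 S-phase and 2 of 21 mitosis genes in the E-cadherin term, and for 3 of 20 and 0 of 21 in the CD133 term. The share of all genes under 0.05 without adjustment was not counted, so these member counts have no background to be read against. The smallest Benjamini-Hochberg adjusted p of limma over all genes was 0.644 among members for E-cadherin and 0.168 for CD133. That fit assumes that the markers add up on the log2 scale.

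The difference of the E-cadherin ratios, CD133high minus CD133low, equals that of the CD133 ratios, Elow minus Ehigh, and states how far the arrays depart from additivity. It was below 0 for 19 of 20 S-phase genes and 19 of 21 mitosis genes, against 46.5% of all genes, with medians of -0.63 and -0.48 and 0.05 over all genes. It was -1 or lower for PCNA, MCM3, POLA1, UHRF1, FEN1 and CDK1, 5 of 20 and 1 of 21, against 4.89% of all genes. E2F1, MKI67 and CDC25C were the members above 0, E2F1 by 1 or more, as were 7.09% of all genes. With 1 array per subpopulation this departure was not tested.

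The agreement between probe sets differed by pair. In Elow over Ehigh cells of the CD133high state, 50 of 56 probe sets of the 23 genes with several were below 0, and for 17 genes all probe sets went the same way. In CD133high over CD133low cells of the Elow state it was 49 of 56 and 17 genes. Among CD133low cells, where the list medians were small, 25 of 56 were below 0 and 10 genes had all probe sets on 1 side. These counts were not made over all probe sets. By the probe set that stands for each gene, 45.6%, 46.1% and 56.2% of all genes were below 0 in these pairs, in that order. A further probe set that names CENPA together with SLC35F6 was not used.

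**Figure D5:**
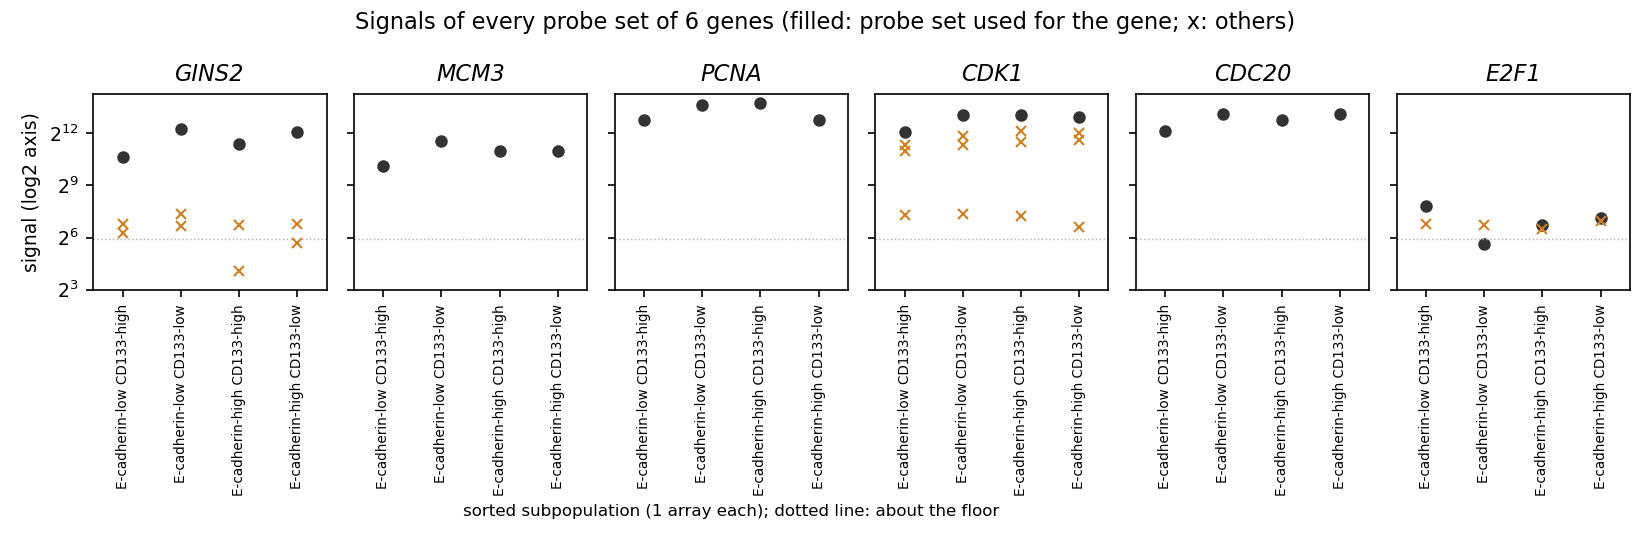
Signals (log2 axis) of every probe set of 6 genes in the 4 sorted subpopulations, 1 array each. Filled points mark the probe set used for the gene and crosses the others. The 3 bright probe sets of CDK1 are lowest in Elow CD133high cells, while the second probe set of E2F1 stays between 89.5 and 126.

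Other genes of the same pathways, from lists named with earlier results of these data known, had medians of the same sign in both wide pairs. For 50 other S-phase genes with a probe set of their own, of 52 listed, the medians were -0.39 and 0.13 for E-cadherin in CD133high and CD133low cells, and -0.03 and -0.59 for CD133 in Ehigh and Elow cells. For 72 other mitosis genes they were -0.28 and 0.13, and 0.07 and -0.29, the last against -0.50 for the mitosis members. In neither list was any gene at least 2-fold higher or lower in both pairs of a comparison. The Elow CD133high array was the lowest for 40 of 50 and 47 of 72. In CD133high over CD133low cells of the Elow state, 5 of 50 and 5 of 72 were at least 2-fold lower, against 4.27% of all genes, and for the mitosis list that share is near the one over all genes. The 5 S-phase genes were ORC1, the largest subunit of the origin recognition complex, the polymerase epsilon subunits POLE and POLE2, DTL, which directs the destruction of CDT1, and ZWINT, a kinetochore gene kept in the S-phase list. Their ratios were -1.01, -1.15, -1.09, -1.09 and -1.39. The 5 mitosis genes were CCNF (-1.42), the separase ESPL1 (-1.12), the spindle protein TACC3 (-1.08) and the centromere genes CENPO (-1.05) and CENPM (-1.02). These genes at 2-fold in a single pair were named after their values were seen.

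Of 18 genes for E2F factors, RB proteins and the MuvB complex, 0 were 2-fold higher or lower in both pairs. Their medians were -0.22 and 0.33 for E-cadherin and 0.20 and -0.39 for CD133, and 6 of 18 were lowest in Elow CD133high cells, near the 29.7% of all genes. In Ehigh CD133low cells 10 of 18 were lowest, against 23.3% of all genes. E2F7, which like E2F8 represses E2F targets, read 649.6 in Elow CD133high and 1582 in Elow CD133low cells, against 1410.3 in Ehigh CD133high and 1214 in Ehigh CD133low cells. RBL1, the RB relative p107, read 245 and 564 in the Elow and 377 and 195 in the Ehigh subpopulations, CD133high before CD133low in each. As for PCNA, the E-cadherin ratios of RBL1 had opposite signs, -0.63 in CD133high and 1.53 in CD133low cells. E2F7 has 2 probe sets and RBL1 4, of which the brightest are given, and both genes were named after their values were seen. E2F2, LIN54 and MYBL1 also reached 2-fold in a pair. Their E-cadherin ratios were -0.59, 0.55 and -0.48 in CD133high and -0.06, -0.17 and 1.29 in CD133low cells.

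Among measures of RNA quality, the 3' to 5' signal ratios of actin and GAPDH were highest on the array of Elow CD133high cells. The 5' signal of 18S ribosomal RNA did not move with that array. It was 8619 (Elow CD133high), 7226 (Elow CD133low), 13204 (Ehigh CD133high) and 14297 (Ehigh CD133low). Actin had a 3' to 5' signal ratio of 1.78 in Elow CD133high cells and 1.53 to 1.59 on the other arrays, and that of GAPDH 1.02 against 0.898 to 0.963. The median ratio of 12 housekeeping genes was -0.06 and -0.17 for E-cadherin in CD133high and CD133low cells, and -0.22 and -0.07 for CD133 in Ehigh and Elow cells. The part of RNA quality in the members' values was not tested.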

How the data were processed

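Total RNA of each sorted subpopulation was hybridised to 1 one-colour Affymetrix array. The deposited intensities, 1 per probe set and linear in scale, were made with MAS5 per the submitters' processing notes. Its version is not given in the sources used here. Every array had a mean of 500.1 once 2% of probe sets were left out at each end, so the authors had scaled the intensity values. From these, each gene was taken from its brightest probe set by mean log2 signal, signals under the 50th percentile of an array's probe sets other than controls were set to that floor, and log2 ratios were taken between arrays that differ in 1 marker. The 14083 genes above the floor on 1 or more arrays were measured. A call needed 2-fold on the same side in both pairs of a comparison. With 1 array per subpopulation no ratio within a pair was tested, an additive fit gave the only p-values, and precision is limited by how few arrays there are. Members and lists were chosen with earlier results of these data known. Every member may be named, with signals on all arrays for those at 2-fold in a pair or at 1.5-fold in both, and for 1 or more of each role. The promoters printed were chosen after the values were seen. Motifs were searched by exact match on both strands. The procedure was tested on simulated data. Alternatives were no floor, other floors and thresholds, quantile normalization, array medians made equal, the mean over probe sets, leaving out shared probe sets, and an additive limma fit, to which a variance trend was added after seeing the data. The fit used limma 3.58.1 in R 4.3.3. Ratios and motifs were computed with pandas 2.3.3 and numpy 2.4.6 under Python 3.11.15, and figures drawn with matplotlib 3.10.9.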

Additional observations from a re-analysis of the deposited data

Results flagged for a closer look

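Some ratios had opposite directions in the matched pairs of a comparison, with 1 array per subpopulation, and these differences were not tested. PCNA had an E-cadherin ratio (log2, low over high) of -0.98 in CD133high and 0.89 in CD133low cells, and a CD133 ratio (log2, high over low) of 0.99 in Ehigh and -0.88 in Elow cells. MCM3 had E-cadherin ratios of -0.91 in CD133high and 0.59 in CD133low cells. E2F1 had 1.06 in CD133high cells and, as a bound, -1.30 in CD133low cells, by a dim probe set. The median E-cadherin ratio of the S-phase genes was -0.44 in CD133high and 0.17 in CD133low cells, and that of the mitosis genes -0.34 and 0.14.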

How the results depend on the processing

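The list medians moved by less than the SD between probe sets of a gene in the same pair under every alternative that gave medians. That SD describes single genes and is wide for a median over a list, so staying within it does not show that a median is stable. For S-phase genes the E-cadherin median ranged from -0.61 to -0.35 in CD133high and from 0.17 to 0.37 in CD133low cells, and the CD133 median from -0.72 to -0.53 in Elow cells. In Ehigh cells that median lay between -0.05 and 0.10 and changed sign in 2 alternatives. For mitosis genes the E-cadherin ranges were -0.51 to -0.32 and 0.09 to 0.28, and the CD133 ranges 0.08 to 0.25 in Ehigh and -0.58 to -0.24 in Elow cells. Equal array medians moved the median of all genes to -0.12 for E-cadherin in CD133high cells, and relative to it the S-phase and mitosis medians were -0.49 and -0.39. The small counts of members moved more, and except where fewer probe sets, a higher floor or another threshold set them, the cause was not tested. In the E-cadherin pair of CD133high cells, 0 S-phase genes were higher under quantile normalization, equal medians, a floor at the 65th percentile, the mean over probe sets and 3-fold, and 3 were lower under equal medians and 8 at 1.5-fold. There, 0 mitosis genes were lower under the mean over probe sets and 3-fold, and at 1.5-fold 5 were lower and 1 higher. In the CD133low pair, 0 S-phase genes were lower under the 65th percentile floor, the mean over probe sets and 3-fold, and at 1.5-fold 4 S-phase genes and 1 mitosis gene were higher. In the CD133 pair of Ehigh cells, 1 S-phase gene was higher under quantile normalization, equal medians and 1.5-fold, and at 1.5-fold 1 S-phase gene was lower and 1 mitosis gene higher. In that of Elow cells, 0 S-phase genes were higher under the 65th percentile floor, 3 were lower under the mean over probe sets and without shared probe sets, 11 at 1.5-fold and 0 at 3-fold. There, mitosis genes that were lower numbered 0 under quantile normalization, the mean over probe sets and 3-fold, 2 under equal medians and without shared probe sets, and 7 at 1.5-fold. In both pairs at 1.5-fold, 1 S-phase gene was lower with CD133 and 1 mitosis gene higher with low E-cadherin. Leaving out shared probe sets left 15 S-phase and 15 mitosis genes. With a variance trend, added after seeing the data, the additive limma fit also called 0 members, and over all genes 9 higher and 12 lower for E-cadherin and 185 and 104 for CD133, against 0 and 0, and 27 and 28, without it. No analysis with replicates paired as blocks was possible, because each subpopulation has 1 array.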
